A study of Homo sapiens with 3 samples.

Results

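The annexin genes are described here across 3 arrays of KYSE180, an established line of human oesophageal squamous cell carcinoma. The members were chosen by name, as every probe set that the platform's annotation gives to ANXA1, ANXA2, ANXA3, ANXA4, ANXA5, ANXA6, ANXA7, ANXA9, ANXA10 or ANXA11 alone. These were 10 of the 18132 genes with such a probe set, measured by 41 of 49293 probe sets. The control group is labelled only as control, and the label leaves unsaid whether its cells were given a transfection reagent or the negative-control siRNA of the design text. The vector group was transfected with LZRS_HOTAIR, a vector that carries the long non-coding RNA HOTAIR, using Polyfect. The siRNA group received a mixture of siRNAs against HOTAIR, 100 pmol, with Lipofectamine2000. RNA was taken 48 h after transfection in both arms, and no time is given for the control. The source name of the siRNA sample refers to a HOTAIR cell line, whereas its title and cell line field name KYSE180. Reagent and kind of nucleic acid differ between the arms and cannot be told apart from the level of HOTAIR.

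Annexins bind acidic phospholipids in the presence of calcium, through a conserved core of repeats, and differ mainly in the N-terminal region that binds their protein partners. They organise membrane domains, vesicle traffic and the sealing of torn plasma membrane. In squamous epithelium ANXA1 and ANXA2 are abundant proteins, and ANXA1 is best known as a glucocorticoid-induced protein whose N-terminal peptide acts on formyl peptide receptors.

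Each group had 1 array, so the differences below carry no replicate check, and no p-values were computed. Signals are log2 values made with RMA, which corrects background, equalises arrays and summarises the probes of a probe set, and a difference of 1 is 2-fold. The only spread that could be measured was that between probe sets of the same gene. Its pooled SD over 5982 genes was 0.36 (log2) in the comparison of vector with control, 0.39 in that of siRNA with control and 0.21 between the arms, and it does not include variation between cultures or arrays. The table names 0 probe sets for HOTAIR, so the manipulation could not be checked on its target. Of the squamous markers, 5 of 8 had a probe set of their own and all 5 were above the filter, between 8.92 and 13.38, among them the basal keratins KRT5 and KRT14. They did not share an order: KRT14 read 13.38 in control cells, 12.22 with the vector and 13.01 with siRNA, KRT5 12.64, 11.72 and 12.47, SFN 12.03, 11.59 and 11.31, PKP1 9.54, 9.19 and 8.92, and DSG3 10.23, 10.90 and 11.10. Their part in the results below was not tested. The 3 simple epithelial markers lay between 9.80 and 12.65. None of the 6 fibroblast, 3 leukocyte and 3 endothelial markers was above the filter, with signals from 2.33 to 5.51.

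Over the 10917 genes above the filter (a mean of at least 5.28 over the arrays), 15.2% lay 2-fold or more above control in the vector cells and 2.05% lay as far below it. The percentages were 14.9% and 1.85% in the siRNA cells, and 1.73% and 1.85% when the vector array was set against the siRNA array. The control array thus lay farther from both arms than these lay from each other. Of the 2-fold differences, 88.1% were higher in vector minus control (73.6% after repeated quantile normalization) and 88.9% in siRNA minus control (78.3%). Both comparisons use the same control array. The members' counts are read against these percentages.

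The promoters of 4 members are shown first, those of ANXA1, ANXA3 and ANXA10, which were at least 2-fold apart between arrays, and that of ANXA2, whose brightest probe sets hardly differed. Each is the 250 bases before the transcription start, from RefSeq (GRCh38.p14), read 5′ to 3′ on the strand of the gene. The windows are chr9:73151615-73151864 (plus strand) for ANXA1, chr4:78551520-78551769 (plus) for ANXA3, chr4:168092287-168092536 (plus) for ANXA10 and chr15:60397987-60398236 (minus) for ANXA2. Capitals mark matches to 6 motifs searched on both strands, which were the TATA box TATAAA, the CCAAT box, the GC box GGGCGG, the core of the interferon-stimulated response element (GAAA, any 2 bases and GAAA again), the STAT site TTCNNNGAA and the AP-1 site TGANTCA.
ANXA1: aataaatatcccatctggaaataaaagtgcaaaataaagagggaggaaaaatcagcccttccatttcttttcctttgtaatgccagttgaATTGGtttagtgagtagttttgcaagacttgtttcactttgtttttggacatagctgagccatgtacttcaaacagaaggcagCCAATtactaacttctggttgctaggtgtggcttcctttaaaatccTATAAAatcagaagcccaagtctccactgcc
ANXA3: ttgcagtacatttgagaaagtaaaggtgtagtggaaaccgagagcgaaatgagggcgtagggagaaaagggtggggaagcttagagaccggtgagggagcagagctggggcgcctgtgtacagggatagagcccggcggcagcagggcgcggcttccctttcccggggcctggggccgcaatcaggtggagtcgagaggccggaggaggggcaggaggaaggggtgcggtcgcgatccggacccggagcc
ANXA10: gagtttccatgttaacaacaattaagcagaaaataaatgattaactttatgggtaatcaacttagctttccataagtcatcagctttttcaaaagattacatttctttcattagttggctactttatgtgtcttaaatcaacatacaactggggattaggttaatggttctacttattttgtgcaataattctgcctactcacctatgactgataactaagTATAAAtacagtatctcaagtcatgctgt
ANXA2: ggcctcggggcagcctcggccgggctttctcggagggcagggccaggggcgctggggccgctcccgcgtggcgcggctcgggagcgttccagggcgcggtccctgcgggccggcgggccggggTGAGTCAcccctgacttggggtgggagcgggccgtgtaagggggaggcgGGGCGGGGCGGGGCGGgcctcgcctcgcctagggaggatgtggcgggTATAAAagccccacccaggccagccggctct

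The windows of ANXA1 and ANXA10 were poor in G and C, at 38.4% and 31.2%, and held 0 CpG dinucleotides, whereas the median over all 35116 RefSeq promoter windows was 58% with 11 CpG. Those of ANXA3 (64% and 18 CpG) and ANXA2 (78% and 28 CpG) were richer. TATAAA stood 31 to 26 bases before the start in ANXA1 and in ANXA2, and 29 to 24 bases before it in ANXA10. It occurred in 10.7% of all windows. ANXA1 also held CCAAT once on each strand, a motif found in 32% of windows. ANXA2 held GGGCGG 3 times, each overlapping the next by 1 base, and TGAGTCA once, motifs present in 42.6% and 6.57% of windows. The ANXA3 window matched none of the 6 motifs. The interferon element core (3.02% of windows) and the STAT motif (6.57%) had no match in any of the 14 promoter windows of the 10 members, which says only that these letters are not in these windows. Among the 10 other windows, TATAAA occurred in 1 of the 3 of ANXA11, and GGGCGG in both windows of ANXA4 and in windows of ANXA5, ANXA6, ANXA7 and ANXA11.

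ANXA1 was lowest in control cells and higher in both arms. On the probe set that stands for the gene, the one with the highest mean, the signal was 9.13 in control cells, 12.36 with the vector and 11.73 with siRNA. Both arms lay far above control, with the vector array the higher. Against control the gene was 9.37-fold higher with the vector (log2 3.23) and 6.07-fold higher with siRNA (2.60). Among the genes above the filter these differences ranked at percentiles 99.2 and 98.8. Between the arms it was higher in vector cells by 0.62, or 1.54-fold, at percentile 95.7.

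The probe sets of ANXA1 gave like values. The 4 above the filter exceeded control in vector cells by 3.38 ± 0.19 (SD between probe sets, which are not replicates) and in siRNA cells by 2.67 ± 0.08. Between the arms their mean was 0.71 ± 0.12, and all 4 were higher in vector cells. The fifth probe set was dim on every array, at 3.42 in control cells, 3.40 with the vector and 3.65 with siRNA, close to the lower quartiles of the arrays (3.72, 3.58 and 3.62), and is not read. With it in the mean the gene was above control by 2.70 with the vector and 2.18 with siRNA.

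ANXA3, which encodes an annexin abundant in neutrophils and also made by epithelial tumours, was highest in vector cells. Its signal was 3.75 in control cells, 7.37 with the vector and 5.05 with siRNA. The control signal was at the lower quartile of its array, so the size of its differences from control is uncertain. ANXA3 was above the filter through the vector array, since its control and siRNA signals were below 5.28. Vector cells were higher than siRNA cells by 2.32 (4.99-fold, percentile 99.7) and higher than control by 3.62 (12.3-fold, percentile 99.7).

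A second probe set of ANXA3 read 4.04 in control cells, 7.08 with the vector and 4.73 with siRNA. Vector minus siRNA was then 2.35, next to 2.32, and vector minus control 3.04. The siRNA array was above control by 1.30 on the first probe set and by 0.69 on the second, so that this difference reached 2-fold on 1 of 2. Their mean was 1.00 ± 0.43 (SD between probe sets), just under 1 before rounding.

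ANXA10, a member found mainly in gastric epithelium whose calcium-binding sites are largely lost, was highest in siRNA cells and lowest in vector cells. On its single probe set the signal was 5.36 in control cells, 4.79 with the vector and 6.97 with siRNA. The siRNA array stood above both others, and it brought the mean past the filter. Against control the gene was 3.06-fold higher with siRNA (log2 1.61, percentile 93.0), and the vector array was 4.52-fold below the siRNA array (-2.18, percentile 0.27). Vector minus control was -0.56 and did not reach 2-fold. With 1 probe set the value has no check within the array.

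**Figure D1:**
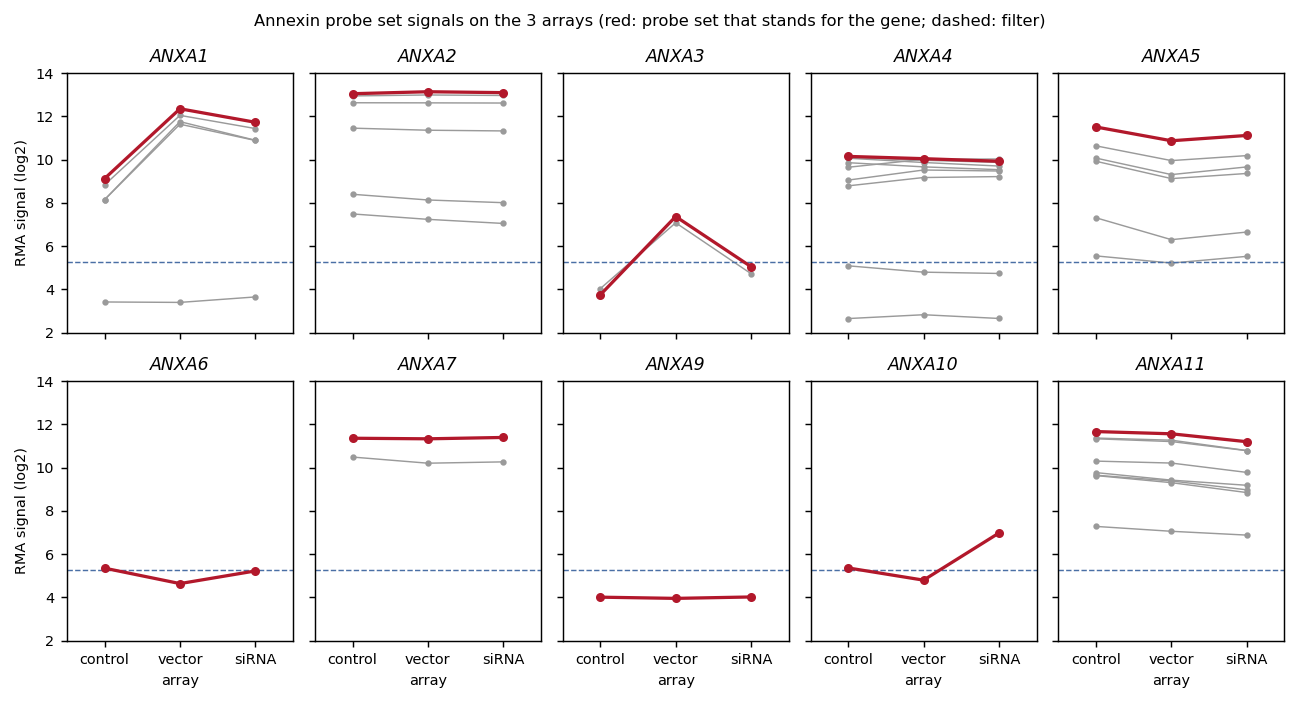
Log2 RMA signal (vertical axis) of each of the 41 annexin probe sets on the control, vector and siRNA arrays (horizontal axis), 1 panel a gene, with the probe set that stands for the gene in red and the filter at 5.28 dashed. ANXA1 runs from 9.13 in control to 12.36 in vector and 11.73 in siRNA cells, ANXA3 peaks at 7.37 in vector cells, and ANXA10 peaks at 6.97 in siRNA cells.

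ANXA5, which binds exposed phosphatidylserine and forms lattices at membrane wounds, was highest in control cells and lowest in vector cells. Its signal was 11.51 in control cells, 10.88 with the vector and 11.12 with siRNA. As deposited, the same order held on all 6 of its probe sets above the filter, although the dimmest of them was above control in siRNA cells after cyclic loess (0.27) and after centring (0.15). Vector minus control was -0.64 on the brightest and -0.70 ± 0.22 over the 6, from -1.01 to -0.33, and 1 of the 6 passed 2-fold. Over the same probe sets siRNA minus control was -0.42 ± 0.22 and vector minus siRNA -0.29 ± 0.06. On the probe set that stands for ANXA5 no difference reached 2-fold. Among the genes above the filter the differences ranked at percentiles 15.4 (vector minus control), 34.0 (siRNA minus control) and 17.5 (vector minus siRNA). The all-gene medians against control were -0.18 and -0.17, and after centring ANXA5 was at -0.45 in vector and -0.22 in siRNA cells.

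ANXA11, whose long N-terminal region links RNA granules to lysosomes and binds the calcium sensors S100A6 and PDCD6, was lowest in siRNA cells. Its signal was 11.67 in control cells, 11.56 with the vector and 11.20 with siRNA. The siRNA array was the lowest on all 8 probe sets. Over them the siRNA array differed from control by -0.57 ± 0.12 on average, and the vector array from the siRNA array by 0.37 ± 0.11. The vector array differed from control by -0.20 ± 0.11. After centring the sign of this difference turned on the probe set that stands for the gene (0.08) and on others (0.06, 0.09 and 0.09). On the rest it stayed below 0, between -0.16 and -0.04. None of these reached 2-fold. Among the genes above the filter the differences of ANXA11 ranked at percentiles 54.4 (vector minus control), 27.1 (siRNA minus control) and 88.8 (vector minus siRNA).

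ANXA2, which with S100A10 forms a complex that binds plasminogen at the cell surface, had signals of 13.05 in control cells, 13.14 with the vector and 13.10 with siRNA. It differed from control by 0.09 in vector and 0.05 in siRNA cells, and by 0.04 between the arms. These signals lie near the upper end of the arrays, whose highest values were between 14.06 and 14.19, where array signals are compressed. On its 2 dimmest probe sets, at 7.05 to 8.40, vector minus control was -0.25 and -0.26 and siRNA minus control -0.44 and -0.39. The sign against control thus depended on the probe set. The pseudogene ANXA2P2, whose sequence is nearly that of ANXA2, read 12.81, 12.87 and 12.83, so shared hybridisation of the bright probe sets is possible and was not tested.

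ANXA4, an annexin of epithelial cells that self-associates on membranes, had signals of 10.15 in control cells, 10.05 with the vector and 9.93 with siRNA. Its 7 probe sets above the filter split by direction. In 4 of them both arms were below control, with vector minus control between -0.20 and -0.10 and siRNA minus control between -0.36 and -0.22. In the other 3 both arms were above control, by 0.37, 0.38 and 0.47 in vector and by 0.38, 0.43 and 0.42 in siRNA cells. After centring, the former 4 lay between -0.01 and 0.08 in vector cells and the other 3 between 0.55 and 0.65, so the gap between the sets of probe sets stayed. The sign of the former turned in 2 of 4 in vector cells and in 0 of 4 in siRNA cells. Between the arms the 7 lay between -0.04 and 0.16. No difference of ANXA4 reached 2-fold.

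ANXA7, or synexin, which binds sorcin and promotes membrane fusion, had signals of 11.36 in control cells, 11.33 with the vector and 11.40 with siRNA. Its other probe set read 10.49, 10.20 and 10.27. The arms differed by -0.06 on both, within the spread between probe sets of a gene. ANXA6 and ANXA9 were below the filter. ANXA6, whose annexin core is duplicated, read 5.35 in control cells, 4.63 with the vector and 5.22 with siRNA, lowest in vector cells by 0.58 against siRNA cells. ANXA9, a member with altered calcium-binding sites, read 4.01, 3.95 and 4.02, with the 3 arrays within 0.07.

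**Figure D2:**
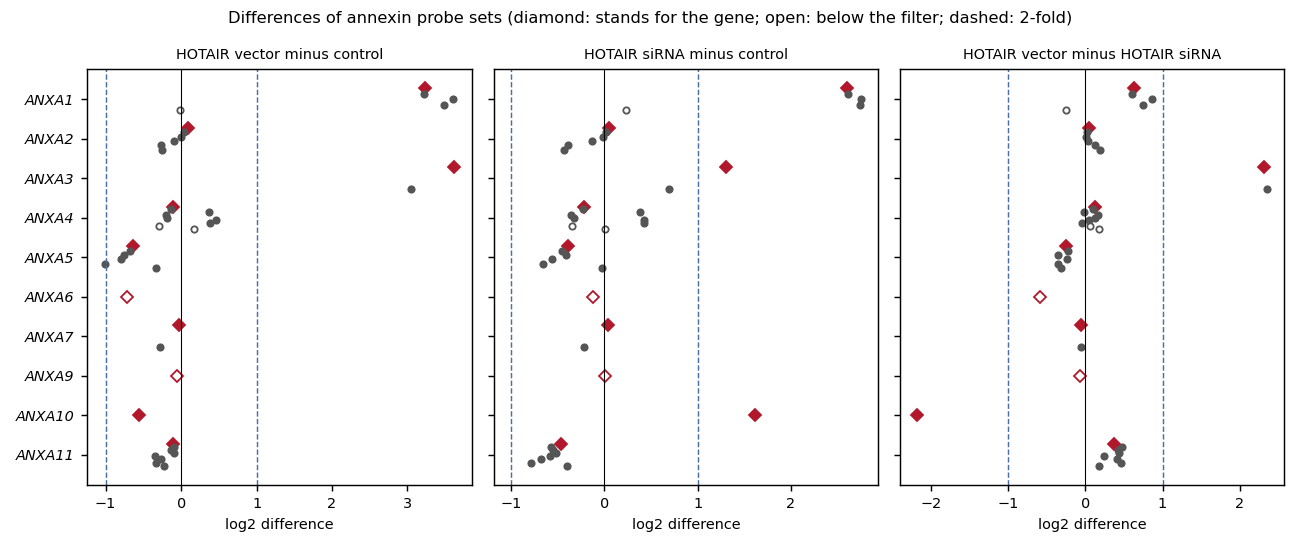
Log2 difference (horizontal axis) of every annexin probe set in each of the 3 comparisons, by gene (vertical axis), with diamonds for the probe set that stands for the gene, open marks for probe sets below the filter and dashed lines at 2-fold. The 4 brighter ANXA1 probe sets lie together past 2-fold against control, those of ANXA4 split to both sides of 0, and ANXA3 (2.32) and ANXA10 (-2.18) lie at opposite ends of vector minus siRNA.

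In all, 8 of the 10 members were above the filter, and ANXA3 and ANXA10 were so through the array in which they were high. In vector minus control 2 were at least 2-fold higher, ANXA1 and ANXA3, and 0 lower, against a background of 15.2% and 2.05%. In siRNA minus control 3 were higher, with ANXA10 as well, and 0 lower, against 14.9% and 1.85%. This count was 2, without ANXA3, with the mean over probe sets (11.3% of all genes). It was also 2 without probe sets ending in _x_at or _s_at (14.1%) and at a 3-fold threshold (7.25%). Against backgrounds of this size, 2 and 3 genes are not read as a result about the family. Between the arms, where the background was 1.73% higher and 1.85% lower, ANXA3 was higher and ANXA10 lower in vector cells. Both passed the filter through the array in which they were high, so this count depends on the filter. With the filter at the 75th percentile it was 0 higher and 0 lower (1.24% and 1.15% of all genes). It is not read as a result about the family either. The median difference over the 8 was -0.07, 0.04 and 0.08 in the 3 comparisons, beside -0.18, -0.17 and 0.01 over all genes above the filter. The all-gene median of vector minus control was -0.03 after cyclic loess and -0.29 after repeated quantile normalization, so a sign near 0 is not read.

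**Figure D3:**
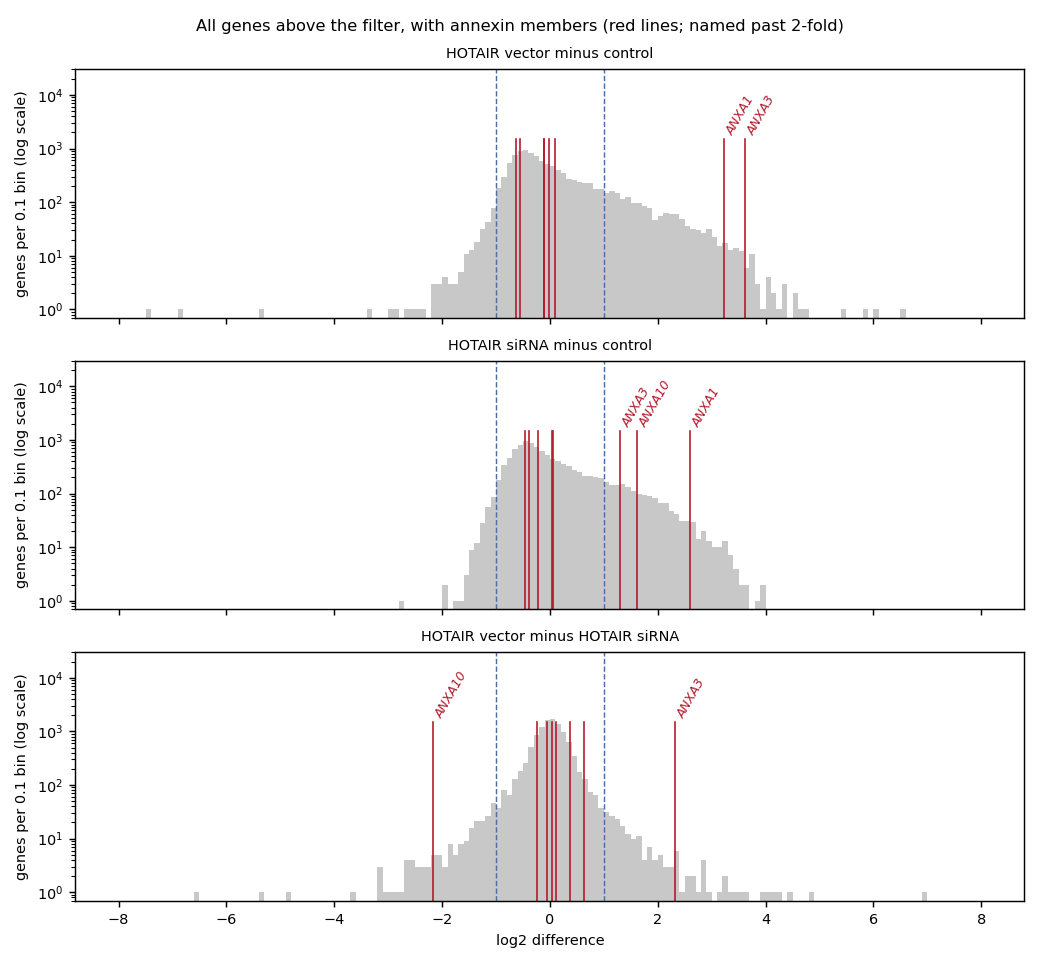
Number of genes per 0.1 of log2 difference (vertical axis, log scale) among the 10917 genes above the filter, by log2 difference (horizontal axis), in the 3 comparisons, with the 8 annexins above the filter as red lines and 2-fold dashed. ANXA1 and ANXA3 lie in the long upper tail of vector minus control. In siRNA minus control ANXA1 lies in the upper tail, with ANXA10 (1.61) and ANXA3 (1.30) nearer to 2-fold. ANXA3 and ANXA10 lie in opposite tails of the narrower distribution between the arms.

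On the probe sets that stand for the genes, the member with the widest range over the arrays was ANXA3, at 3.62 against 3.23 for ANXA1. This order rests on a dim control signal and turned without probe sets ending in _x_at or _s_at, where vector minus control was 3.04 for ANXA3 and 3.21 for ANXA1, and with the mean over probe sets above the filter (3.33 and 3.38). The 5 genes above the filter nearest to it, by Euclidean distance between the differences from control over these 3 arrays, were DDX60L, SLC9A2, IFIH1, ZNF292 and IFIT2, at distances of 0.31 to 0.49. DDX60L read 4.13 in control cells, 7.48 with the vector and 5.28 with siRNA. IFIH1 read 6.13, 9.42 and 7.38. Vector minus siRNA was 2.19 for DDX60L, 1.92 for SLC9A2, 2.05 for IFIH1, 1.83 for ZNF292 and 2.40 for IFIT2, next to 2.32 for ANXA3. Because it follows from the differences by which these genes were picked, its closeness was set by the choice and adds nothing. With 3 arrays a pattern has few degrees of freedom, and these names are a description.

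The genes that act with annexins were followed in 7 lists of 54 genes, of which 49 were measured and 33 were above the filter. Of the 33, 3 lay 2-fold or more above control in the vector cells (background 15.2%) and 2 in the siRNA cells (14.9%), 2 were higher with the vector than with siRNA (1.73%), and 0 were lower in any comparison. The medians over the 33 were 0.00, -0.13 and 0.10 in that order. Partner values below are those of the probe set that stands for the gene. Other probe sets of their own were read only for partner genes past 2-fold, so the values printed for the rest have no such check.

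Among binding partners, 7 of 9 S100 and EF-hand genes were above the filter and 1 passed 2-fold. S100P, an S100 protein often raised in carcinomas, read 5.43 in control cells, 7.21 with the vector and 5.17 with siRNA on 1 probe set. It was higher in vector cells by 1.78 against control and by 2.04 against siRNA cells, and the control and siRNA arrays were close. S100A10, the partner of ANXA2, read 12.29, 12.02 and 11.82, and S100A11, the partner of ANXA1, read 11.58, 11.05 and 11.01. Both were highest in control cells. They were singled out for their role after their values were seen. Of the 7 genes of this list above the filter, 4 were above control in vector cells and 1 was in siRNA cells. Over all 10917 genes, 4453 and 4493 were above control. The receptors of the ANXA1 peptide, FPR1, FPR2 and FPR3, were all below the filter. FPR2 read 3.73 in control cells, 3.17 with the vector and 3.38 with siRNA, and FPR1 3.66, 3.49 and 3.76, near or below the lower quartiles of the arrays.

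Phospholipase A2 enzymes release arachidonic acid, and annexins were first known as lipocortins, proteins that inhibit them. PLA2G4A, the cytosolic enzyme, read 4.17 in control cells, 6.60 with the vector and 7.11 with siRNA. It was higher than control by 2.42 in vector and 2.93 in siRNA cells, so both arms were above control, as for ANXA1, with siRNA cells the higher by 0.51. It rests on 1 probe set whose control signal was below the filter. PLA2G6, the other gene of this list above the filter, was at -0.60 and -0.68.

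The next list holds genes that move phosphatidylserine, the lipid that ANXA5 binds, between the membrane leaflets, and includes both scramblases, which expose it, and flippases, which return it. The median of the 5 genes above the filter was 0.64 for vector and 0.91 for siRNA cells against control, beside -0.18 and -0.17 over all genes. All 5 were above 0 in both, as were 4453 and 4493 of all 10917 genes. Because the list holds genes of opposite action, its median has no reading as exposure. The scramblase family gene PLSCR1, which interferon induces, read 10.95 in control cells, 12.69 with the vector and 11.11 with siRNA, higher in vector cells by 1.74 and 1.58. Its other 5 probe sets gave 2.15 to 2.43 against control and 1.41 to 2.14 against siRNA cells. PLSCR4 read 6.65, 7.24 and 8.11, higher in siRNA than in control cells by 1.46. Its other probe set was dim and at -0.51. ANO6, a scramblase, was at 0.64 and 0.91 against control. ATP11A, a flippase, and TMEM30A, the flippase subunit, were at 0.49 and 0.67 and at 0.85 and 0.96.

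The remaining lists had no member past 2-fold. In the plasminogen list, 5 genes were above the filter. PLAU, the urokinase gene, read 5.91 in control cells, 5.65 with the vector and 6.57 with siRNA, and its receptor gene PLAUR 7.19, 6.59 and 6.49. For PLAU the vector array was 0.92 below the siRNA array, and for PLAUR vector minus siRNA was 0.10, each on 1 probe set of 3 and 5. Of 12 membrane repair genes above the filter, the widest apart were the ESCRT ATPase genes. VPS4A read 9.48, 8.77 and 8.57 and VPS4B 9.61, 10.43 and 10.39, so the arms lay below control for VPS4A and above it for VPS4B. Among the other annexins and pseudogenes with a probe set of their own, only ANXA2P2 and ANXA2R were above the filter. ANXA2R, a gene named for a proposed ANXA2 receptor, read 6.62, 6.78 and 6.66. ANXA8 alone was dim (4.25, 4.10 and 3.93), and 5 further probe sets name it together with ANXA8L1 and LINC00842. In the brightest of these the signals were 10.51, 10.36 and 10.01. Those above the filter were lowest in siRNA cells, with siRNA minus control of -0.71, -0.80, -0.51 and -0.50. The dimmest, below the filter, read 4.95, 4.53 and 4.80. Which of the named genes these signals come from cannot be told.

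**Figure D4:**
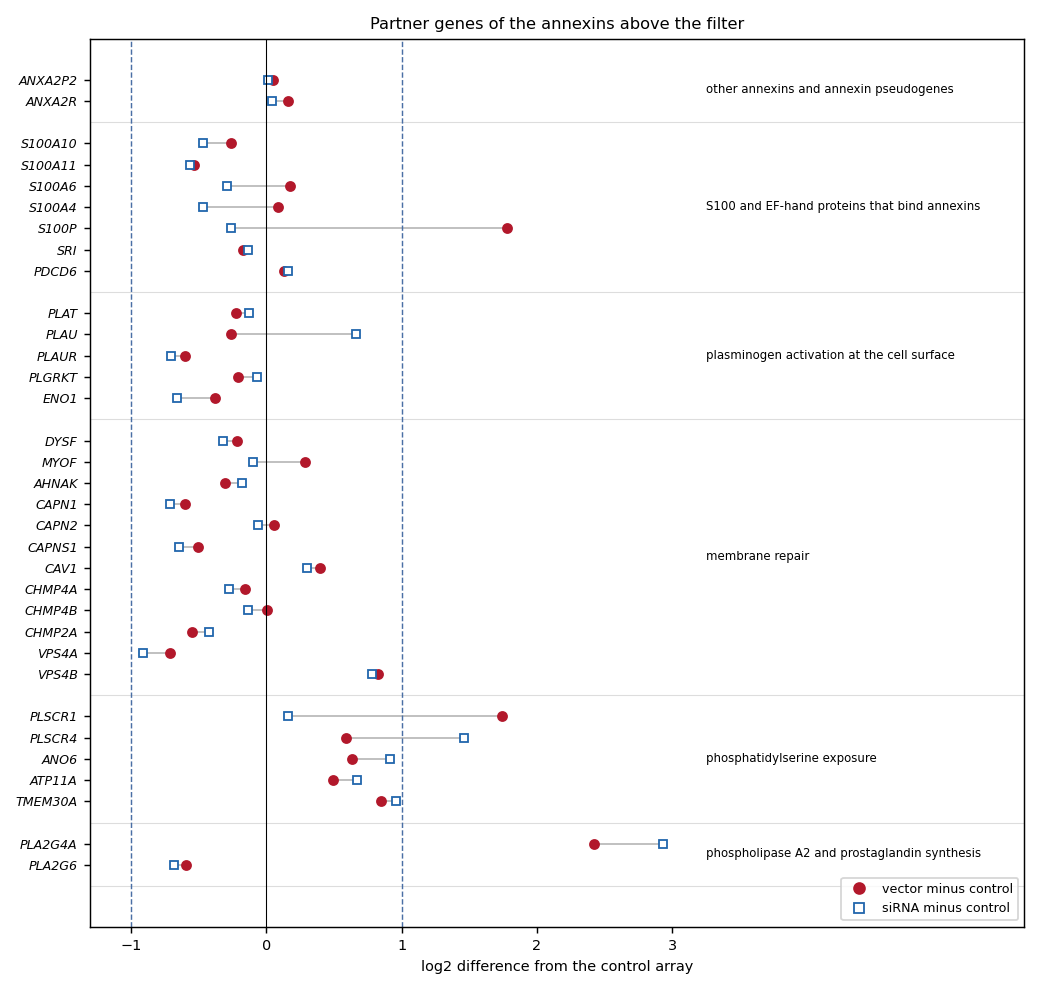
Log2 difference from the control array (horizontal axis) for the 33 partner genes above the filter, grouped by list (vertical axis), with filled circles for vector and open squares for siRNA cells and dashed lines at 2-fold. PLA2G4A lies past 2-fold in both arms, S100P (1.78) and PLSCR1 (1.74) in vector cells, and PLSCR4 (1.46) in siRNA cells.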

How the data were processed

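Total RNA was biotin-labelled and hybridised to oligonucleotide arrays, 1 each for control, HOTAIR vector and HOTAIR siRNA, per the labels' protocols. The authors deposited log2 signals per probe set, for which the submitters' processing notes name RMA, and the scale was inferred from the range of the values. Not given in the sources used here are the RMA version and the chip definition. Differences of dim and of very bright probe sets are compressed in such array signals.

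Genes came from the platform annotation (44988 of 49293 probe sets with 1 symbol, 1832 with several). The probe set with the highest mean stood for its gene, which was kept where that mean reached the median of all probe set means. Log2 differences were computed with no test. The members and partner lists were chosen with earlier results of these data known. All members are named, with partner genes at least 2-fold apart or else the 2 most different of a list, and the 5 genes nearest to the member of widest range. Promoters of all 10 members were matched in RefSeq, and motifs were chosen after the values were seen. Steps were tested on simulated data. Alternatives were fold thresholds, filters, probe set choice, repeated quantile normalization, cyclic loess (span 0.4, 3 cycles) and centring. Python 3.11.15, numpy 2.4.6, pandas 2.3.3, statsmodels 0.14.6 and matplotlib 3.10.9 were used.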

Additional observations from a re-analysis of the deposited data

How the results depend on the processing

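Of 222 alternative values of the members' differences, 216 stayed within the spread between probe sets, 6 moved beyond it and 0 changed sign among those past 2-fold. The 6 were ANXA1 with the mean over probe sets (2.70 and 2.18 against control) and, without probe sets ending in _x_at or _s_at, ANXA3 (3.04 and 0.69), ANXA5 (-1.01 in vector) and ANXA2 (-0.44 in siRNA cells). Many of the 216 could not move, because a change of filter leaves a member's difference as it was. Another choice of probe sets also changes nothing for a member with a single one. The number 216 is therefore not a measure of stability. The mean over probe sets above the filter was chosen after seeing the data.

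At 1.5-fold, 1 member (ANXA5) was lower in vector minus control (19.4% of all genes) and 2 were higher in vector minus siRNA (4.74%). Of 33 partner genes, 7 were higher and 4 lower at 1.5-fold in vector minus control (22.9% and 19.4% of all genes), 7 and 6 in siRNA minus control (22.8% and 18.0%), and 2 lower in vector minus siRNA (4.95%). At 3-fold, 1 partner gene was higher in siRNA minus control (7.25% of all genes) and 1 in vector minus siRNA (0.632%). The filter at the 75th percentile left 6 members and 24 partner genes. With it, 1 member (ANXA1) was higher in each comparison with control (15.8% and 15.7% of all genes). In vector minus siRNA 0 members were higher and 0 lower (1.24% and 1.15%). Partner genes higher with this filter numbered 1, 0 and 1 in the 3 comparisons (15.8%, 15.7% and 1.24% of all genes). With the mean over probe sets 1 partner gene was higher in siRNA minus control (11.3% of all genes). Without probe sets ending in _x_at or _s_at, ANXA5 made 1 member lower in vector minus control (2.08% of all genes). Under this setting 1 partner gene, AHNAK, was lower in siRNA minus control (2.15%). Repeated quantile normalization made 1 partner gene, VPS4A, lower in siRNA minus control (3.74% of all genes). Partner genes higher in siRNA minus control numbered 4 after cyclic loess (18.2% of all genes) and 4 after centring (17.9%). In vector minus control 5 were higher after centring (18.1%). For thresholds and filters the alternative itself sets the count, and for the others the cause was not tested. No paired analysis was possible because each group has 1 array, and no array could be left out. Dim signals limit ANXA3, ANXA6, ANXA9 and ANXA10.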
